A study of Mus musculus with 5 samples.

Results

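H3K27me3 domains of dermal fibroblasts that were at least 2 times longer in both Kdm6b-cKO libraries than in either WT library are described here. Broad peaks of all 4 libraries were merged on the autosomes, 47569 merged regions resulted, and 9810 of them held a peak in every library (common regions). Of these common regions, 1272 were selected because the smaller of both Kdm6b-cKO covered lengths was at least 2 times the larger of both WT covered lengths. Covered length is the number of bases of a region that lie under a peak. The members were thus chosen by the Kdm6b-cKO against WT contrast itself, so their covered lengths are given as a description with no test. In total, 13.0% of common regions met the rule, and the mirrored rule, with WT and Kdm6b-cKO exchanged, was met by 26 regions (0.265%).

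The study profiled H3K27me3 by ChIP-seq in fibroblasts of E18.5 mouse skin, expanded in AmnioMAX medium. The Kdm6b-cKO group (replicates 3 and 4) carried a Kdm6b fl/fl allele with Twist2-Cre (also called Dermo1Cre), which is driven by the promoter of a gene of the mesenchymal lineage that includes dermal fibroblasts, and the libraries labelled WT were replicates 7 and 9. Mice were of C57BL/6 background, the exact alleles of the WT group are not given for this assay, and the labels state a sort for GFP for all libraries. Both groups had 2 libraries, and it is not stated whether these came from separate embryos, so their spread may be technical. A two-sided exact permutation test of 2 against 2 libraries cannot go below p = 0.33.

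H3K27me3 is placed by Polycomb repressive complex 2 (PRC2) and is found on silenced developmental genes, often around CpG islands, from which it can extend over long domains. Kdm6b (Jmjd3) is a demethylase that removes methyl groups from this lysine. In skin, the mark and its removal are known for their part in the differentiation of epidermal and dermal cells. The cultures were bulk samples, so a longer domain in every cell and a domain present in more of the cells cannot be told apart. None of the 18 core fibroblast genes and none of the 18 housekeeping genes of fixed lists had a start site in a common region, and a peak list measures no expression.

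Sequence from the reference (mm10) is shown for 4 of the members with the largest gain, because the members divide into a core, covered in all 4 libraries, and a gained length, covered in both Kdm6b-cKO libraries but in neither WT library. Gain is the mean Kdm6b-cKO minus the mean WT covered length. For each, the 150-base window of the core with the most CpG dinucleotides is followed by a window of the gained length with the median number of CpG. The windows were picked by different criteria and show the sequence under each class, not a comparison. CpG dinucleotides are in capitals, and none of the windows overlaps an annotated exon.
Gm1043 core, chr5:37162669-37162818, in an intron of Gm1043: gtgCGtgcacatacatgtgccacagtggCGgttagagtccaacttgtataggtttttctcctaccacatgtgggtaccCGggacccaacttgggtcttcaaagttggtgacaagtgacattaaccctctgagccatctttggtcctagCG
Gm1043 gained, chr5:37148734-37148883, in introns of Gm1043 and Jakmip1: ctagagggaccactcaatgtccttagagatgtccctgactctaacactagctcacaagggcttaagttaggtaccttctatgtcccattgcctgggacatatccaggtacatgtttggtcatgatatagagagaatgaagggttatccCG
Camta1 core, chr4:151108645-151108794, in an intron of Camta1: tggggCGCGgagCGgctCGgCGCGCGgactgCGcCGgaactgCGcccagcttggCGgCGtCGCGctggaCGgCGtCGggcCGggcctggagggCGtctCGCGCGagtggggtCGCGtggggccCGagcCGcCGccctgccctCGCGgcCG
Camta1 gained, chr4:151096286-151096435, in an intron of Camta1: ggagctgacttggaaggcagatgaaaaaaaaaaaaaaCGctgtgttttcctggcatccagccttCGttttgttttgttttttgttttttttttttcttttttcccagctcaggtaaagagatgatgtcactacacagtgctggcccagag
Grm4 core, chr17:27422842-27422991, in an intron of Grm4: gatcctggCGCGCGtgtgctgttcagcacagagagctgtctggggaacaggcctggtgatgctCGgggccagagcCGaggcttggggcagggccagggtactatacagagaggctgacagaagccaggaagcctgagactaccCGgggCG
Grm4 gained, chr17:27406858-27407007, between genes: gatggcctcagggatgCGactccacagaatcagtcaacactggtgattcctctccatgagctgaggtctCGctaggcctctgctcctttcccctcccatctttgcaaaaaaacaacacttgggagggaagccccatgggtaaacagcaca
Trp73 core, chr4:154071656-154071805, in an intron of Trp73: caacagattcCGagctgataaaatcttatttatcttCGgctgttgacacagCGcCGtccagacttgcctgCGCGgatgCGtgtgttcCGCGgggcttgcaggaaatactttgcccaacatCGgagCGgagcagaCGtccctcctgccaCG
Trp73 gained, chr4:154062123-154062272, in an intron of Trp73: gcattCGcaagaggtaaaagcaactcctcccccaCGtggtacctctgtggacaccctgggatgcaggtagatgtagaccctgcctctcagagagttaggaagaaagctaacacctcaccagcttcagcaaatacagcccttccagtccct
The core window of Camta1 held 30 CpG and that of Trp73 held 13. The core windows of Grm4 and Gm1043 held 7 and 4, and the 4 gained windows held 1 or 2. All windows are given on the forward strand.

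A member had a median covered length of 6.63 kb in Kdm6b-cKO replicate 3 and 5.97 kb in replicate 4. In WT the medians were 1.64 kb in replicate 7 and 1.09 kb in replicate 9. The other 8538 common regions had medians of 6.25 and 5.33 kb in Kdm6b-cKO and of 5.00 and 3.21 kb in WT. Members differed from the other common regions mainly in their WT lengths, while their Kdm6b-cKO lengths were similar. The rule selects regions that are short in WT relative to Kdm6b-cKO, and its part in this difference was not tested. The merged regions were also of similar extent, with a median of 7.34 kb in members and 7.18 kb in the others.

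The ratio of the smaller Kdm6b-cKO to the larger WT covered length had a median of 2.81 over members, with quartiles of 2.31 and 3.91. It was at least 3 in 565 members, at least 5 in 180 and at least 10 in 31. Gain had a median of 4.80 kb and ranged from 0.74 to 51.5 kb, and 40 members gained at least 20 kb. Together the members gained 8.25 Mb, which was 30.2% of the gain of all common regions and 14.8% of the difference in mean autosomal covered length between the genotypes. Kdm6b-cKO replicates 3 and 4 covered 133.3 and 115.3 Mb of the autosomes, and WT replicates 7 and 9 covered 81.8 and 55.3 Mb. When covered lengths were scaled to the total of each library, 409 members remained, all among the 1272, and 242 regions met the mirrored rule. The plot of covered lengths by region shows where the members lie.

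**Figure D1:**
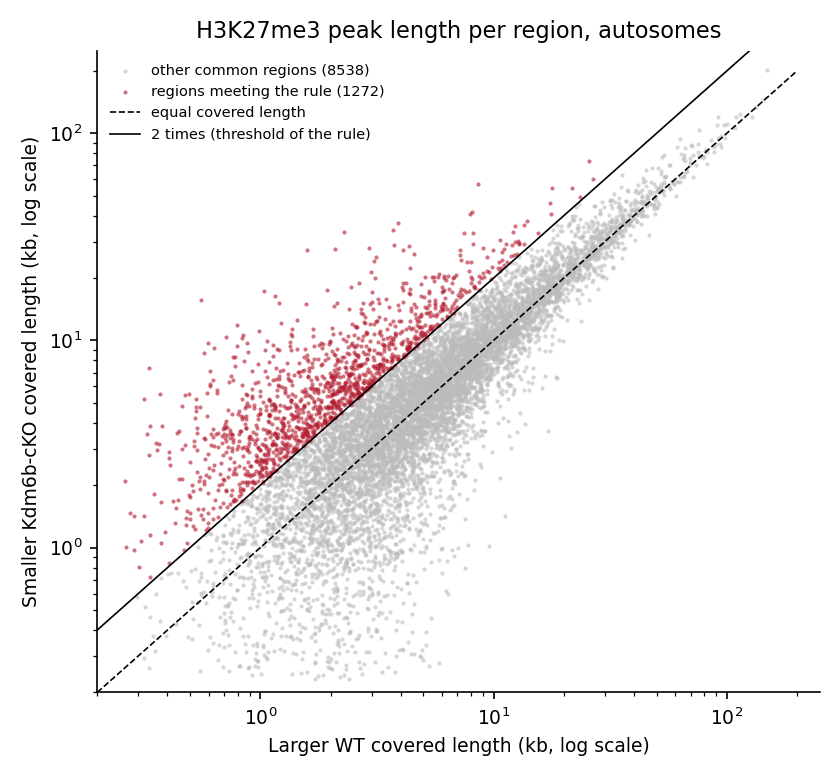
Each point is 1 of the 9810 common regions, with the larger of both WT covered lengths on the x axis and the smaller of both Kdm6b-cKO covered lengths on the y axis (kb, log scales). The 1272 members lie on or above the solid line at 2 times the WT length by construction, and the cloud of the 8538 others narrows around equality (dashed line) at long WT lengths.

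The threshold cut through a continuous range. The members just inside it were a region near Zmiz1, a region in Trpm2 and one in Nrxn2, each with a ratio of 2.001. The region near Zmiz1 covered 6.82 and 2.05 kb in Kdm6b-cKO compared with 1.03 and 0.763 kb in WT. The regions just outside were at Pianp (1.998), near Olfr1358 (1.998) and in Zbtb16 (1.996). The Pianp region covered 10.6 and 9.003 kb in Kdm6b-cKO, where WT had 4.50 and 2.18 kb. The values on both sides of the threshold were thus alike.

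Short WT domains made up most of the members. Of the 141 common regions with a mean WT covered length under 0.5 kb, 65.2% were members. The share was 47.6% between 0.5 and 1 kb, 22.2% between 1 and 2 kb, 10.5% between 2 and 4 kb, 4.57% between 4 and 8 kb and 2.04% between 8 and 16 kb. At 16 kb or more, 5 of 799 regions were members (0.626%). The median gain over all common regions of these classes lay between 1.45 and 1.80 kb up to a WT length of 8 kb, and was 2.37 and 3.87 kb in the longest 2 classes. The share of members fell with WT length while the gain in kb did not. A like gain in kb gives a larger ratio where the WT length is short, so this fall follows from a rule on the ratio.

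**Figure D2:**
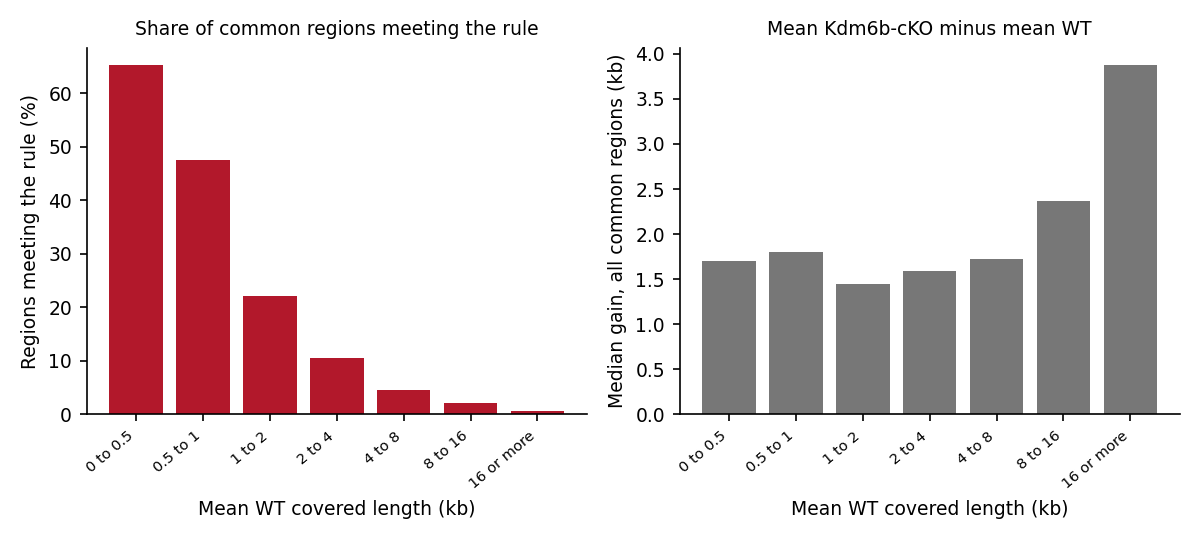
Bars give, for 7 classes of mean WT covered length (x axis, kb), the percentage of common regions that met the rule (left) and the median gain in kb of all common regions of the class (right). The left bars fall from 65.2% to 0.626%, and the right bars lie between 1.45 and 3.87 kb.

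The members of largest gain lay mostly in the bodies of long genes. The largest gain was in the merged region chr5:37148372-37213120 (mm10), in the body of the predicted gene Gm1043, which overlaps Jakmip1, so its peaks cannot be assigned to either. It covered 62.1 and 56.7 kb in Kdm6b-cKO replicates 3 and 4 against 8.56 and 7.18 kb in WT replicates 7 and 9. A neighbouring member, chr5:37087358-37130695, covered 40.6 and 42.7 kb in Kdm6b-cKO compared with 7.92 and 7.102 kb in WT. It holds the start site of a short second gene model named Jakmip1, and not that of the long Jakmip1 gene. Both WT libraries lay far below both Kdm6b-cKO libraries in each.

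Camta1, a calmodulin-binding transcription activator, had the longest member (chr4:151096205-151175263), with 73.6 and 74.5 kb in Kdm6b-cKO, where WT had 25.6 and 19.7 kb. Grm4, a metabotropic glutamate receptor, was covered over 60.0 kb as 1 peak in each Kdm6b-cKO library, and over 26.8 and 11.8 kb in WT as 13 and 10 separate peaks. Here the same stretch was broken into short pieces in WT. Trp73, a member of the p53 family, had 56.7 and 54.3 kb in Kdm6b-cKO, where WT had 21.8 and 13.2 kb, in 11 and 9 pieces.

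The region at 9530053A07Rik (chr7:28112555-28159221) covered 44.5 and 41.9 kb in Kdm6b-cKO compared with 8.05 and 1.55 kb in WT, and no base was covered in all 4 libraries. A region near Tas1r2, a subunit of the sweet taste receptor, covered 36.7 and 38.2 kb in Kdm6b-cKO, where WT had 1.95 and 3.89 kb. A region in Rbfox3, the gene of the neuronal splicing factor known as NeuN, covered 35.2 and 33.2 kb in Kdm6b-cKO compared with 0.846 and 2.29 kb in WT. A region in Elfn2, a leucine-rich repeat protein, covered 34.0 and 35.4 kb in Kdm6b-cKO, where WT had 3.70 and 0.983 kb. In these 4 regions the WT peaks were short pieces of a domain that 5 or fewer peaks covered in each Kdm6b-cKO library.

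**Figure D3:**
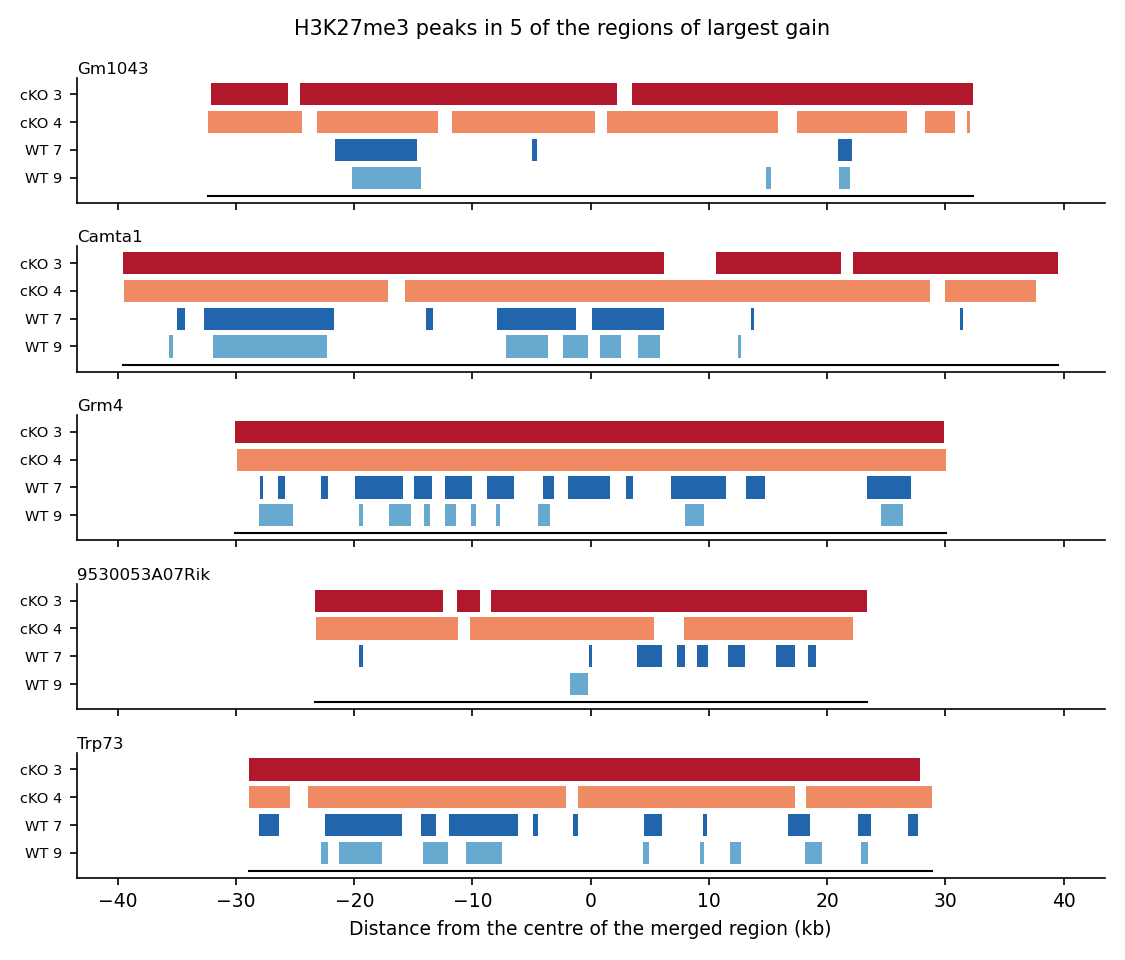
Bars mark the deposited peaks of each library (rows: Kdm6b-cKO replicates 3 and 4, WT replicates 7 and 9) in 5 of the members with the largest gain, against the distance in kb from the centre of the merged region. The black line is the extent of the merged region, and the Kdm6b-cKO bars fill most of it while the WT bars cover a smaller part.

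The highest ratio, 28.2, was in Vwa5b1, which encodes a protein with a von Willebrand factor A domain. Its region covered 17.0 and 15.7 kb in Kdm6b-cKO compared with 0.556 and 0.476 kb in WT. A region in Gabbr2, a GABA-B receptor subunit, followed with 7.55 and 7.38 kb in Kdm6b-cKO, where WT had 0.320 and 0.333 kb. Regions in Xkr6, Sez6l and Pkd1l2 had ratios of 17.3, 16.8 and 16.4. The WT covered length of these 5 regions was at most 1.58 kb, so the ratio rests on 1 to 3 short WT peaks.

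Both Kdm6b-cKO libraries covered much the same bases in the members, and both WT libraries did not. The bases shared by both libraries made up a median of 74.96% of the bases covered in either for Kdm6b-cKO and 23.1% for WT. In the other common regions these medians were 74.7% and 55.3%. In 295 members (23.2%) the peaks of both WT libraries shared no base at all, against 236 (2.76%) of the others, and 354 members had no base covered in all 4 libraries, against 740 of the others. The rule takes regions with short WT peaks, and its part in this low overlap was not tested. Of the bases covered in at least 1 Kdm6b-cKO and neither WT library, 69.0% were covered in both Kdm6b-cKO libraries in members, and 53.0% in the other common regions. The rule asks for a long covered length in both Kdm6b-cKO libraries, and its part in this difference was not tested. WT replicate 7 was the larger WT value in 907 members, and WT replicate 9 was the larger in 365.

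Gained length lay both within and outside the stretch from the first to the last WT-covered base. In members, 42.6% of it lay between WT-covered bases and 57.4% beyond them, against 50.7% and 49.3% in the others. Where gained length flanked the WT span, more than 90% of it lay on 1 side in 47.7% of 1221 members, against 76.9% of 5320 others. At least 20% lay on each side in 40.5% of members and 17.4% of others. Of the bases covered in either WT library, 1.69% in members and 5.50% in others lay under no Kdm6b-cKO peak.

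The profile of coverage around the median position of the WT-covered bases showed the same difference in shape. Over members, 94.9% and 91.4% of bases in the 250-base bin next to this position were covered in Kdm6b-cKO replicates 3 and 4, and 73.9% and 55.5% in WT replicates 7 and 9. At 5.125 kb towards higher coordinates, the values were 40.6% and 36.1% in Kdm6b-cKO and 9.69% and 4.75% in WT. In the other common regions they were 40.7% and 34.6% in Kdm6b-cKO and 29.2% and 19.9% in WT at that distance. At this distance members and others had like coverage in Kdm6b-cKO and differed in WT. The rule selects short WT lengths, and its part in this difference was not tested.

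**Figure D4:**
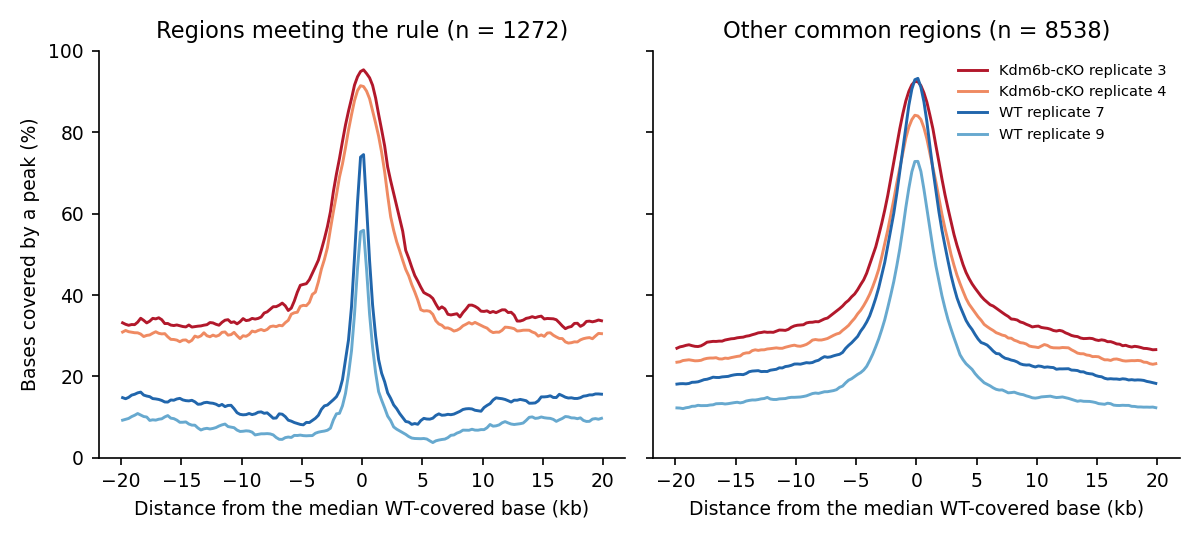
Lines give the percentage of bases covered by a peak in each library, averaged over regions in 250-base bins (y axis), against the distance from the median WT-covered base (x axis, kb), for the 1272 members (left) and the 8538 other common regions (right). In members the WT lines lie below the Kdm6b-cKO lines at each distance, and at 5.125 kb stand at 9.69% and 4.75% against 40.6% and 36.1%.

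The surroundings of members were also covered more in Kdm6b-cKO. Within 50 kb of members, outside all common regions, 11.1% and 9.38% of bases were covered in Kdm6b-cKO replicates 3 and 4, and 1.89% and 0.328% in WT replicates 7 and 9. Around the other common regions the values were 5.51%, 4.18%, 1.54% and 0.291%. These flanks hold by construction no region marked in every library, and flanks of members and of others can overlap. The Kdm6b-cKO libraries thus covered a larger share of bases around members than around other common regions.

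Peaks of members stood higher within their Kdm6b-cKO lists than within their WT lists, and so did peaks of other common regions. By the deposited −log10 q value, peaks in members stood at a median percentile of 74.2 and 67.2 of their Kdm6b-cKO lists, and at 42.2 and 35.3 of their WT lists. Peaks in other common regions stood at 81.5, 73.6, 67.7 and 56.8. The rule selects short WT peaks, and its part in the low WT percentiles of members was not tested. With peaks of −log10 q of at least 5 alone, 1427 regions held a peak in every library. Of these, 83 (5.82%) met the rule with a median gain of 19.96 kb, and 0 met the mirrored rule. The 83 regions overlapped only 13 of the 1272 members (1.02%). Nearly all members were thus lost from the rule under the stricter threshold. How many lost a peak in 1 of the lists and how many failed the ratio was not counted.

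Start sites of protein-coding genes were less frequent in members. Of 1272 members, 234 (18.4%) held a start site, against 27.3% of the other common regions. At region lengths of 20 kb or more, 26.9% of 104 members and 62.2% of 1021 others held one, and under 5 kb the shares were 12.4% and 11.3%. Between 5 and 10 kb they were 17.6% of 534 members and 22.6% of 3110 others, and between 10 and 20 kb 22.9% of 319 and 38.0% of 1840. The difference in share was thus found in each class of 5 kb or more, was largest in the longest, and was not found under 5 kb. Regions were matched here by their length and not by the WT covered length that the rule selects. The share was 47.5% of 181 regions meeting the rule with lists cut to the covered length of the shortest and 78.3% of 83 with −log10 q of at least 5. Other common regions were not counted under these settings, so it is not known whether the difference held there. A further 30.8% of members lay inside 1 gene without its start site, against 20.3% of others, and 46.1% of members overlapped no protein-coding gene, against 48.8% of others. Of the gained length of members, 39.8% was intronic, 5.51% exonic, 9.79% within 3 kb of a start site and 44.8% intergenic, while the core had 19.9% within 3 kb of a start site.

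Of the 2885 protein-coding genes with a start site in a common region, 251 (8.70%) had it in a member. In 60 of these 251 genes the start site itself was covered in all 4 libraries (23.9%), and in 92 it was covered in both Kdm6b-cKO libraries but in neither WT library (36.7%). For start sites in other common regions these shares were 69.8% and 8.54%. The rule selects short WT lengths and so lowers the share of start sites under a WT peak in members.

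The fixed gene lists differed in how many of their start sites lay in members, and the 8.70% over all genes is the share to read them against. Developmental transcription factors were nearly absent. None of 75 neuronal transcription factors, 31 Hox genes and 83 other homeobox genes with a start site in a common region had it in a member, and of 52 forkhead, Sox, T-box and Gata factors 2 did. These were Tbx19, a T-box factor of the pituitary, and Sox8, a relative of Sox9. Sox8 had 4.48 and 5.28 kb in Kdm6b-cKO compared with 2.22 and 1.41 kb in WT. The regions of the neuronal and homeobox lists had median WT covered lengths of 27.1 and 28.2 kb, and those of Hox genes 56.6 kb, against 7.63 kb over all genes. At those lengths few common regions of any kind met the rule.

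The lists of signalling pathways held 27 or fewer genes with a start site in a common region, so their shares are imprecise. Of 27 Wnt pathway genes, Sfrp4, a secreted Wnt antagonist, had its start site in a member, with 2.62 and 2.56 kb in Kdm6b-cKO, where WT had 0.989 and 0.813 kb. In the Sfrp4 region no base was covered in all 4 libraries. Only 0.069 kb of it was covered in both Kdm6b-cKO libraries and in neither WT library. Of 19 genes of the BMP, TGF-beta and activin list, Inhbb, an activin subunit, did, with 8.50 and 8.67 kb against 2.59 and 1.01 kb. Of 15 Notch pathway genes, the receptor Notch4 did, with 13.0 and 12.9 kb against 3.22 and 1.51 kb. None of 13 FGF pathway genes, 9 Hedgehog pathway genes, 20 dermal papilla genes and 12 matrix proteases did. For the axon guidance list the count was 2 of 22, the semaphorin Sema4a and the endothelial receptor Robo4.

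Among genes of fat cells, 3 of 14 had a start site in a member, a small count whose share is imprecise. The regions of this list had a median WT covered length of 5.90 kb, against 7.63 kb over all genes. Common regions with shorter WT lengths met the rule more often. Cidec, a protein of lipid droplets, had 4.65 and 5.62 kb in Kdm6b-cKO compared with 1.82 and 0.267 kb in WT. Ucp1, the uncoupling protein of brown fat, had 4.82 and 4.20 kb in Kdm6b-cKO, where WT had 0.974 and 1.501 kb. Adipoq, the adipokine adiponectin, had 3.57 and 2.87 kb in Kdm6b-cKO compared with 1.08 and 0.503 kb in WT. All 3 were short domains in which no WT value reached a Kdm6b-cKO value, as the rule requires. When covered lengths were scaled to the total of each library, the ratios of all 3 fell below the threshold of the rule.

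Keratins had 4 of 16 start sites in members, all on chromosome 15 in the cluster of type II keratins and its neighbour Krt18. This count is small as well, and the median WT covered length of the keratin list was 4.01 kb, against 7.63 kb over all genes. Krt4 (chr15:101913940-101936841) had 21.8 and 20.1 kb in Kdm6b-cKO, where WT had 5.54 and 2.04 kb. Krt81 had 11.3 and 12.5 kb against 1.37 and 1.17 kb, and Krt76 had 12.6 and 9.43 kb against 1.34 and 0.316 kb. Krt18, a keratin of simple epithelia, had 10.3 and 8.34 kb against 2.23 and 1.76 kb. The start sites of Krt4, Krt81 and Krt76 were covered in both Kdm6b-cKO libraries but in neither WT library, and that of Krt18 in all 4.

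Ion channels, receptors for glutamate, GABA, glycine and acetylcholine, and solute carriers were counted at about the share of all genes. Of 67 potassium channels 7 were in members, among them Kcnt1 with 49.6 and 48.9 kb in Kdm6b-cKO compared with 23.5 and 17.3 kb in WT. The others with the largest gain were Kcnk15, with 38.0 and 35.5 kb against 12.4 and 10.1 kb, and Kcnj11, with 36.6 and 29.7 kb against 12.4 and 9.19 kb. Kcnj11 and Abcc8, which encode the pore and the sulfonylurea receptor of the ATP-sensitive potassium channel, lay in 1 run of 5 members, and Abcc8 had 25.3 and 26.5 kb against 9.38 and 4.58 kb. Abcc8 is on no fixed list and was named after its value was seen. Of 28 calcium and sodium channels 2 were in members (Cacng5 and Scnn1b), and of 41 receptors for glutamate, GABA, glycine and acetylcholine 4 were. Grm2, a metabotropic glutamate receptor, had the longest of the latter, with 29.2 and 31.1 kb against 11.3 and 4.87 kb. Of 88 solute carriers 8 were in members, among them Slc35f3 and Slc36a3.

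Of cell cycle inhibitors and Polycomb genes, 2 were in members. Cbx7, a subunit of Polycomb repressive complex 1, had 9.78 and 10.9 kb in Kdm6b-cKO, where WT had 4.43 and 2.22 kb. Cdkn1c, an imprinted inhibitor of cyclin-dependent kinases, had 7.80 and 6.77 kb in Kdm6b-cKO compared with 1.39 and 0.242 kb in WT. These were 2 of the 3 genes of their list with a start site in any common region. The histamine receptor Hrh2 (1 of 18 monoamine receptors), the collagen Col6a5 (1 of 14), the protocadherin Pcdh20 (1 of 12) and the muscle myosin Myh7 (1 of 11) were also in members. Of markers of other cells of the skin, the epithelial list had 1 of 20 (Krt18), the endothelial list 1 of 15 (Robo4), and the immune list, with 10, and the melanocyte and neural crest list, with 7, had none.

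Some members lay next to each other along the chromosomes. Of all members, 764 had no other member as the next common region, and 508 lay in runs of 2 to 7. Members made up 13.0% of common regions, so some runs occur under any order. The number under a random order was not counted. The longest runs had 7 members. One spanned 210.0 kb at the apolipoprotein L genes on chromosome 15 (77465470 to 77675440, with Apol10a, Apol7c, Apol11a and Apol11b) and gained 96.7 kb in sum. In it the member at Apol11b covered 35.0 and 32.8 kb in Kdm6b-cKO, where WT had 7.49 and 3.31 kb. The other spanned 527.3 kb on chromosome 4 (123960211 to 124487551), overlapped no protein-coding gene and gained 50.9 kb. A run of 6 lay in Cdh23, a cadherin of the hair cells of the inner ear.

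Some genes held several members, and 13.0% of all common regions were members. Cdh23 had 6 members of 9 common regions, which together covered 97.1 and 95.03 kb in Kdm6b-cKO compared with 27.2 and 18.8 kb in WT. Rbfox3 had 5 of 7, with 115.6 and 112.4 kb against 22.0 and 17.6 kb, and Gabbr2 had 5 of 7, with 53.5 and 48.5 kb against 8.04 and 4.74 kb. Atp2b2, a calcium pump of the plasma membrane, had 4 of 6, and Grik4, a kainate receptor subunit, had 4 of 7. Camta1 had 4 of 11, the transcription factor Zfhx3 3 of 20 and the potassium channel Kcnma1 3 of 15, while the shorter Efhd1, of 46.5 kb, had 4 of 5. By chromosome, members made up from 7.17% of common regions on chromosome 19 to 18.1% on chromosome 15. On chromosome 7, 15 of the 35 common regions between 142 and 144 Mb were members, a stretch that includes Ins2, Th, Trpm5 and the imprinted Cdkn1c.

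The base composition of the gained length did not repeat that of the core. Over 917 members with both, the median CpG density was 11.1 per kb in the core and 12.7 per kb in the gained length, and the core was the denser in 44.8% of them. The paired difference, gained minus core, had a median of 0.993 CpG per kb. Weighted by length the order turned, with 16.8 per kb in the core and 13.4 per kb in the gained length. In the other common regions the median core was the denser, with 11.99 against 11.4 per kb. The direction in members followed the length of the core. Among 334 members with a core under 0.5 kb the median was 8.74 per kb in the core and 12.5 in the gained length, and among 157 with a core of 2 kb or more it was 15.2 and 13.1. The other common regions showed the same order by core length, with 7.63 and 10.2 per kb under 0.5 kb and 13.8 and 11.7 per kb at 2 kb or more. With peaks of −log10 q of at least 5 the median difference was -10.0 CpG per kb, and with lists cut to an equal covered length it was -4.19, so the direction depends on how weak peaks are treated.

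Members were richer in G and C than other common regions, with a median of 48.8% against 46.1%. In each class of region length the member median was higher, from 47.4% against 44.6% under 5 kb to 50.3% against 48.5% at 20 kb or more. A CpG island by sequence (200-base windows with GC of at least 50% and an observed over expected CpG ratio of at least 0.6) occurred in 62.4% of members and 57.6% of others, but in the core of 17.1% and 40.3%. The rule leaves members a short core, and among cores of 2 kb or more the shares were 62.4% in members and 64.8% in others. By length, islands made up 10.2% of the core and 5.33% of the gained length of members. The motif letters CCCNNGGG occurred on either strand in 11.2% of 300-base windows of the core, in 11.9% of the gained length, and in 9.75% and 11.0% of the core and the gained length of other regions. CTTTGAT, likewise, occurred in 3.96% to 4.57% of windows of the core and the gained length of members and of other regions. The choice of both motifs was made with the data in view.

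The number of members depended on how the lists were compared, while the excess over the mirrored rule was found under each processing. Each processing compares the same lists by the contrast that chose the members, so this excess is a description and not independent support. Without WT replicate 7, 4154 regions met the rule, and without WT replicate 9 3100 did. Without Kdm6b-cKO replicate 3 the number was 1466 of 10318 (14.2%) and without replicate 4 it was 2093 of 10390 (20.1%). With each list cut to as many of its strongest peaks as the shortest list held, 930 of 7711 common regions met the rule. The mirrored rule was met by 15, and 818 of the 1272 members were among the regions found again. With lists cut to the covered length of the shortest, 181 of 3175 common regions met the rule and 8 the mirrored rule, and 99 members were found again. Of the 10 members of largest gain, 6 met the rule after scaling by total covered length and 10 did with an equal number of peaks. Of the 234 members with a start site, 69 and 185 did. With lists cut to the covered length of the shortest, 5 of those 10 and 46 of those 234 were found again, and with −log10 q of at least 5, 2 and 8 were. Of the 31 members named for gene lists, 10 met the rule after scaling, 24 with an equal number of peaks, 7 with an equal covered length and 4 with −log10 q of at least 5. All 5 members of largest ratio met it after scaling, and 0 did with an equal covered length or with −log10 q of at least 5.

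**Figure D5:**
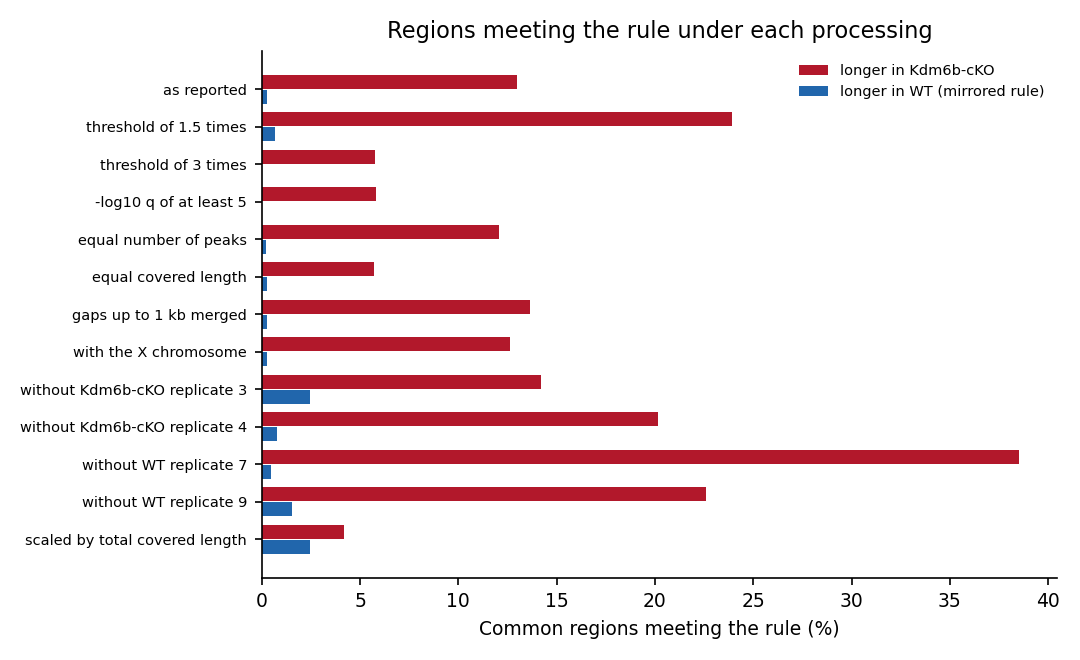
Bars give the percentage of common regions that met the rule (red) and the mirrored rule (blue) for the reported processing and 12 alternatives (y axis). The red bar is longer than the blue in each, and the difference is smallest after scaling by total covered length, with 4.17% against 2.47%.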

How the data were processed

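H3K27me3 ChIP-seq libraries of 2 Kdm6b-cKO and 2 WT cultures were grouped by their titles. The submitters' processing notes name Bowtie2 2.3.5.1, SAMtools 1.9 and MACS2 2.2.7.1 and the build mm10. Per the study's methods, reads were subsampled to a like depth and the authors called broad peaks in each library, with replicates not pooled. The use of the input in calling is not given in the sources used here. The lists deposited by the authors give peak positions, a fold ratio over the local background and a −log10 q value averaged over the broad region. No read count is given per peak, so the number of reads behind a peak is unknown and no interval can be given.

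Peaks on chromosomes 1 to 19 that overlapped by at least 1 bp were merged across the libraries. Covered bases were counted per library, and each base of a region was placed by which libraries covered it. Start sites and gene models were those of GENCODE M21, and sequence came from GRCm38.p6. Promoters were start sites ± 3 kb. No test was run, because the rule used the contrast and regions are not replicates. Members and gene lists were chosen with earlier results of these data known.

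Regions were named by this rule: the 10 members with the largest gain, up to 3 genes of each list by gain, the 3 regions on either side of the threshold and the 5 largest ratios. Runs, genes with several members and 2-Mb stretches were named after their values were seen. Alternatives changed the threshold, the peak strength, the number or length of peaks, the merging gap, the chromosomes, the scaling, the libraries and the annotation. The steps of merging, counting and selection were tested on simulated intervals with planted answers. The work was done in Python 3.11.15 with pandas 2.3.3, numpy 2.4.6, scipy 1.17.1 and matplotlib 3.10.9. The input was not used here. A gene that the naming rule takes is not reported here.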

Additional observations from a re-analysis of the deposited data

How the results depend on the processing

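The number of members, 1272 as reported, moved to 2346 at a threshold of 1.5 times and 565 at 3 times, 83 with −log10 q of at least 5, 181 with an equal covered length and 409 after scaling by total covered length. The number ranged from 1466 to 4154 when 1 library was left out, the highest value being that without WT replicate 7. Fewer libraries must then meet the rule, and common regions numbered 10318 to 13733, against 9810 with all 4 libraries. The median ratio was 4.17 at a threshold of 3 times, 2.09 at 1.5 times and 2.76 to 3.46 when 1 library was left out. Under all alternatives but the threshold of 3 times it moved by less than 1.05. That is the SD of the median ratios of single Kdm6b-cKO over single WT libraries, which is not the ratio of the rule. Each setting selects regions again by the ratio of the rule, so the median lies above the threshold by construction. Its small changes are therefore no sign of stability. The median gain was 4.25 and 5.73 kb at thresholds of 1.5 and 3 times, 19.96 kb with −log10 q of at least 5, 5.84 kb with an equal number of peaks, 8.59 kb with an equal covered length and 4.29 kb after scaling. It was 3.05 to 4.11 kb when 1 library was left out.

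The share of gained length covered in both Kdm6b-cKO libraries was 67.3% and 70.6% at thresholds of 1.5 and 3 times, 79.0% with −log10 q of at least 5, 75.9% with an equal covered length and 65.4% with gaps up to 1 kb merged. It was 65.6% to 70.7% without 1 WT library, and it has no value without a Kdm6b-cKO library. The CpG difference, gained minus core, reversed to -10.0 per kb with −log10 q of at least 5 and to -4.19 with an equal covered length. It was 0.433 with an equal number of peaks, 1.19 with the X chromosome, 0.867 with gained length of at least 1 Kdm6b-cKO library, and 0.565 to 1.34 when 1 library was left out. The share of members with a start site was 78.3% with −log10 q of at least 5, 21.8% with an equal number of peaks, 47.5% with an equal covered length, 25.7% with start sites within 3 kb, 27.8% with all annotated genes and 13.4% to 18.1% when 1 library was left out. The cause of these changes was not tested.

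No paired analysis was possible because the replicate numbers of Kdm6b-cKO (3 and 4) and WT (7 and 9) are not shared. The lists hold no read counts, 2 libraries stand for each genotype, and no spike-in is given, so a difference in total covered length and a difference at single regions cannot be told apart.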
